A study of Mus musculus with 6 samples.

Results

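Myosins are the motor proteins that walk on or pull against actin filaments. The genes described here are 10 myosins out of 18160 genes in the table of expression values: the muscle-type genes Myh7 and Myo18b, the nonmuscle heavy chains Myh9, Myh10 and Myh14, the Myo18b paralogue Myo18a, and the unconventional myosins Myo5a, Myo5b, Myo6 and Myo10. The set was chosen by gene name, but with the difference between the genotypes already known for Myh7 and Myo18b, both lower in the heterozygotes. The differences between genotypes of all 10 genes are therefore given as a description, with their standard errors and no test.

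The tissue was prefrontal cortex of adult mice (strain C57BL/6J, postnatal day 56), and its RNA was sequenced. The groups were 3 wild-type samples (WT) and 3 samples heterozygous for a Cyfip2 mutation (HET). The labels name neither the kind of mutant allele nor the sex of the mice. They also do not state whether each sample is 1 animal, so a p-value here covers the spread between these samples, which may be technical. Cyfip2 encodes a subunit of the WAVE complex, which switches on branched actin assembly, and the comparison asks how gene expression differs when 1 copy of it is mutated.

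Conventional myosins (class II) are dimers of heavy chains with a long coiled-coil tail, and they assemble into filaments that contract actin bundles. Muscle heavy chains such as MYH7 do so in the sarcomere. The nonmuscle chains MYH9, MYH10 and MYH14 do so in the cortex of nonmuscle cells, in neurons at growth cones and dendritic spines. Class V myosins carry organelles and recycling endosomes toward the plus end of the actin filament, class VI moves the other way and works in endocytosis, and class X runs along filopodia. Class XVIII myosins, MYO18A and MYO18B, are thought to have little or no motor activity and to join class II filaments; MYO18B is best known from heart and skeletal muscle.

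The regions just upstream of the start of transcription are shown for 3 of the genes, to set the muscle gene Myh7 beside its nonmuscle relatives Myh9 and Myh14. They are the 250 bases before the RefSeq start (GRCm38.p6, minus strand in each case) of Myh7 at chr14:54994627-54994876, of Myh9 at chr15:77842176-77842425 and of Myh14 at chr7:44670844-44671093, written 5′ to 3′ on the gene's strand. Capitals mark every match, on either strand, to 4 kinds of motif: the TATA box (TATAAA or TATATA), the CCAAT box (CCAAT), the GC box (GGGCGG) and the muscle CAT element (MCAT, CATTCC).
Myh7: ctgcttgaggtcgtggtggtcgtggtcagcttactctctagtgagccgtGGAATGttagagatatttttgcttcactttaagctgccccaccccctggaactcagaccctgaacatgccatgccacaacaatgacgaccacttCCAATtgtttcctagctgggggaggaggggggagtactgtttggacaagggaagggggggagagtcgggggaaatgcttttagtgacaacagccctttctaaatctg
Myh9: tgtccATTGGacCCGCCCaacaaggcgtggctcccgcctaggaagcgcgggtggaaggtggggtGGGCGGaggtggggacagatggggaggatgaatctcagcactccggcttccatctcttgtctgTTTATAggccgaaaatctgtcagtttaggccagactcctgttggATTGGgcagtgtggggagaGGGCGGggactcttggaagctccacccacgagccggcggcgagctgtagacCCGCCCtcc
Myh14: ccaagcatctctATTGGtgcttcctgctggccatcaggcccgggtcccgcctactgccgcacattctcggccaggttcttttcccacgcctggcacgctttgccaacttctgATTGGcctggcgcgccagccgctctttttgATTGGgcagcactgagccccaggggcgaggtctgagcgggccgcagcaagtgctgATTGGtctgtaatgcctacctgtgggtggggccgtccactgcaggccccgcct

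Myh7 had 5 CpG dinucleotides in this window, Myh9 and Myh14 had 14 each, and the median of 32851 RefSeq windows of the same length was 6. The ratio of observed to expected CpG was 0.302 for Myh7, 0.592 for Myh9 and 0.556 for Myh14, against a median of 0.374; 43.0% of all windows were at or below the Myh7 value. The windows before the Myo18a starts had low ratios too, at 0.283 and 0.172. Both starts (77777235 and 77801298) lie inside the GENCODE gene, which begins at 77763246, so they do not describe the region before its first base. The Myh7 window held an MCAT element at position -201 and a CCAAT box at position -107, counted from the start, and none of the other motifs. Myh9 held 4 GC boxes, 2 CCAAT boxes and 1 TATA match, and Myh14 held 4 CCAAT boxes. The MCAT element was not particular to the muscle gene. The windows of Myh10 (position -7), Myo6 (position -223) and 1 of the Myo10 starts (position -67), which are not printed, each held 1. That Myo10 window lies inside the gene and wholly within annotated exons, and 178 bases of the Myh10 window are annotated exon. A further Myh7 start lies 77 bases downstream, and a TATA box stood at position -31 of it, where the CpG ratio was 0.099. Among all windows, 12.6% held an MCAT element, 33.9% a CCAAT box, 32.7% a GC box and 15.6% a TATA box. These are matches of letters and do not show binding. RefSeq windows were used for 8 of the 10 genes. Myo18b had no entry, and member genes on chromosome 18, where Myo5b lies, were left out of this step.

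The genotype labels and the sample makeup were checked before the myosins. Cyfip2 itself had a normalized count (reads per gene, scaled by the authors so that samples are comparable) of 28356 to 29567 in HET against 43174 to 45627 in WT samples, with a log2 fold change of -0.63 ± 0.05 (SE; adjusted p = 0.0027 by limma-trend, which fits each gene linearly and shrinks its variance toward a trend in level). Normalized counts summed to 36.4 to 37.1 M per sample. The most common value near 1 was 0.77 to 1.36 normalized counts, depending on the sample. Taken as 1 read, it puts the depth at an estimated 27.2 to 48.0 M reads, lowest in WT sample 3 and highest in WT sample 1. A mean normalized count of at least 10 was required for testing, which 15151 genes met, all 10 myosins among them.

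Myo18b, the least abundant of the 10, had normalized counts of 133, 116 and 100 in WT samples 1, 2 and 3, and of 50.8, 63.9 and 57.3 in HET samples 1, 2 and 3. All 3 HET values lay below all 3 WT values, and the lowest WT value was well above the highest HET value. The means were 116 ± 16.5 and 57.3 ± 6.55 (SD, n = 3 each), so that HET stood at 49.2% of WT. The log2 fold change, on the scale of log2(normalized count + 1), was -1.01 ± 0.17 (SE), with a 95% interval of -1.38 to -0.63. Of the genes tested, at all levels, 0.541% had a larger log2 fold change in either direction, and 16.8% had a lower mean level. The first share is no test, because Myo18b was chosen with this difference known. Within a genotype it varied by 14.2% (WT) and 11.4% (HET) of its mean, beside a median of 7.61% over all genes tested.

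Myh7, the slow or beta heavy chain of heart and slow skeletal muscle, had normalized counts of 647, 676 and 693 in the WT samples and of 513, 532 and 502 in the HET samples. The genotypes did not overlap here either, and the samples of each genotype lay close together. The means were 672 ± 23.2 and 516 ± 15.3 (SD, n = 3 each), a HET level of 76.7% of WT. On the log2 scale the difference was -0.38 ± 0.07 (SE, with a 95% interval of -0.54 to -0.22), and 4.61% of the genes tested had a larger one in either direction. For Myh7 too, that share is a description of a gene chosen with its difference known. The order of the WT samples differed between the pair: sample 1 was highest for Myo18b and lowest for Myh7.

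The nonmuscle heavy chains did not share one direction. Myh10, the heavy chain of nonmuscle myosin IIB and the form most prominent in brain, was at 11846, 11563 and 11596 in WT and at 12664, 12434 and 12547 in HET samples, so that every HET sample lay above every WT sample. Its log2 fold change was 0.10 ± 0.04 (SE), or 108% of WT, and its spread within a genotype was the smallest of the 10 genes, with a coefficient of variation of 1.33% in WT and 0.916% in HET. Myh9, the heavy chain of nonmuscle myosin IIA, was at 4243, 4673 and 4571 in WT and at 4563, 4269 and 4071 in HET samples. Its genotypes overlapped, and its log2 fold change was -0.06 with a 95% interval of -0.20 to 0.07; it was -0.11 without HET sample 1 or WT sample 1, -0.04 without WT sample 2 and -0.03 without HET sample 3. Myh14, the heavy chain of nonmuscle myosin IIC, was at 780, 1122 and 1080 in WT and at 912, 1086 and 811 in HET samples. It was the most variable of the 10 within WT, with a coefficient of variation of 18.7%; its interval of -0.40 to 0.25 leaves room for a difference in either direction, and its sign turned when single samples were left out (0.02 without HET sample 3 and 0.02 without WT sample 2, against -0.24 without WT sample 1).

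Myo18a, the broadly expressed paralogue of Myo18b, was at 8222, 8328 and 7567 in WT and at 7068, 7631 and 6529 in HET samples. HET samples 1 and 3 lay below all WT samples, while HET sample 2 lay just above WT sample 3. HET stood at 88.0% of WT, a log2 fold change of -0.19 ± 0.07 (SE; 95% interval -0.34 to -0.04). Per kilobase of transcript, Myo18b amounted to 1.29% ± 0.14 of Myo18a in WT and 0.726% ± 0.074 in HET samples (SD, n = 3 each).

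The unconventional myosins showed small differences. Myo5a, which carries endoplasmic reticulum into the spines of Purkinje cells and vesicles in many neurons, was at 25688, 24537 and 25953 in WT and at 24045, 24164 and 25032 in HET samples. HET samples 1 and 2 lay below WT, HET sample 3 within it, and the log2 fold change was -0.06 with a 95% interval of -0.16 to 0.05. Myo6, the motor that moves toward the minus end and acts in endocytosis of AMPA receptors, was at 4046, 4954 and 4299 in WT and at 3701, 4258 and 3873 in HET samples. WT sample 2 stood above the rest, HET sample 2 was inside the WT range, and the log2 difference was -0.17 ± 0.08 (SE; 95% interval -0.35 to 0.02); without WT sample 2 it was -0.08. Oligodendrocyte markers summed to 181216 in WT sample 2 against 126494 to 138375 in the other samples, and their part in the Myo6 value was not tested.

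Myo5b, which brings recycling endosomes with AMPA receptors to spines, was at 707, 613 and 741 in WT and at 736, 736 and 657 in HET samples. Myo10, the filopodial motor, was at 1402, 1621 and 1646 in WT and at 1662, 1634 and 1478 in HET samples. Both genes overlapped between the genotypes. Their log2 fold changes were 0.05 for Myo5b and 0.03 for Myo10, with 95% intervals of -0.15 to 0.25 and -0.14 to 0.21, and the signs turned to -0.03 for Myo5b without WT sample 2 and to -0.04 for Myo10 without WT sample 1.

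**Figure D1:**
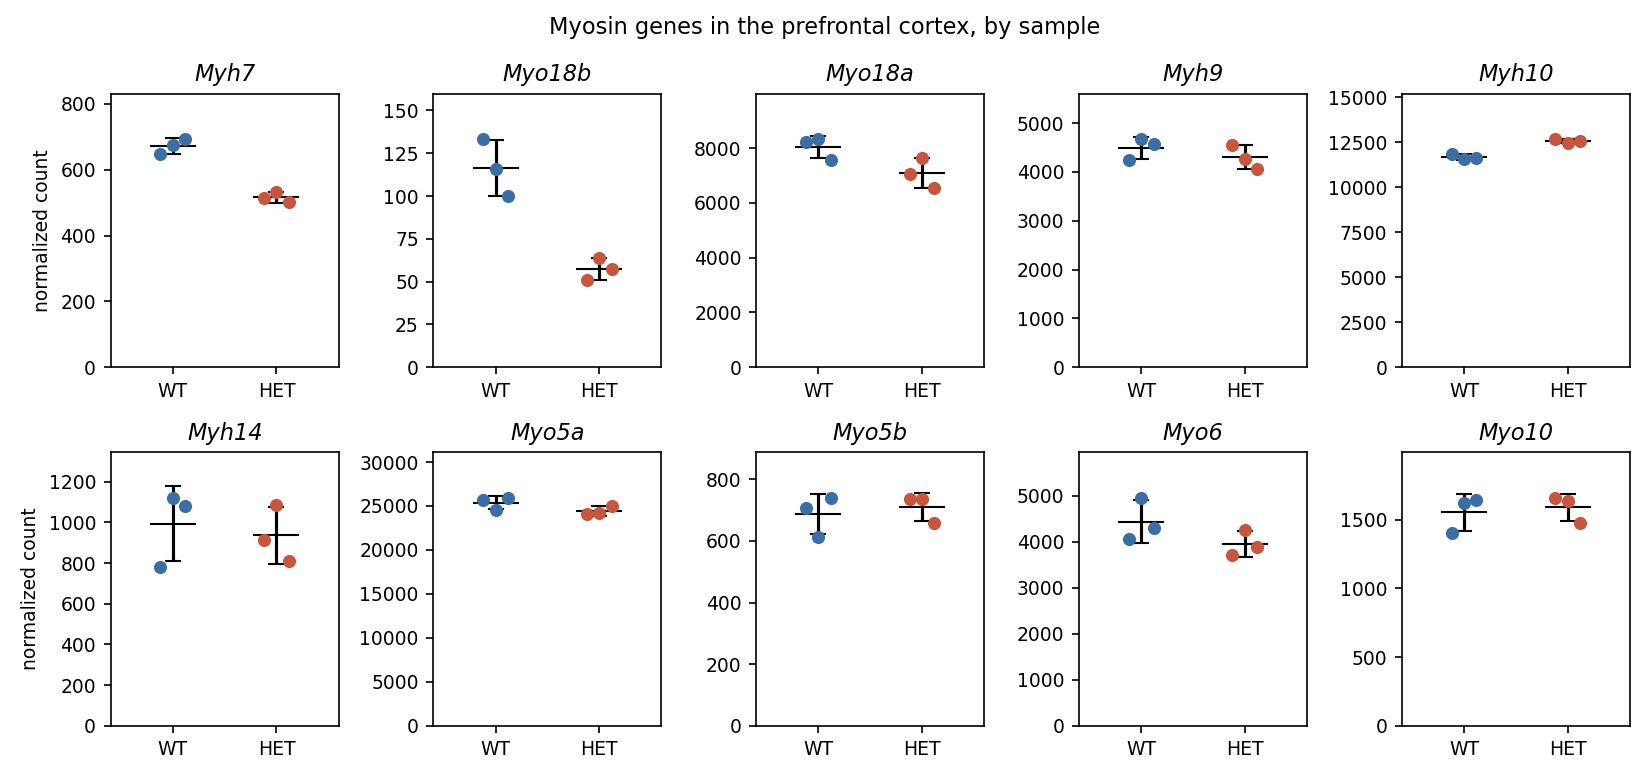
Normalized counts (y axis, from 0) of the 10 myosin genes in 3 WT and 3 HET samples; points are samples, bars the mean and SD. The genotypes separate for Myh7 and Myo18b, lower in HET, and narrowly for Myh10, higher in HET, and overlap for the other 7 genes.

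Set side by side, the muscle-type pair had a mean log2 fold change of -0.69 and the 8 other myosins one of -0.05, a gap of -0.65. The 8 others ranged from -0.19 (Myo18a) to 0.10 (Myh10). Taken within each sample, the mean log2 level of the pair minus that of the 8 others, each gene centred on its own mean, was 0.47, 0.29 and 0.21 in WT samples 1, 2 and 3 and -0.42, -0.28 and -0.27 in HET samples 1, 2 and 3. The gap is the contrast that the choice of genes rests on, and it carries no test. Over all 10 genes 3 were above and 7 below WT, with a median log2 fold change of -0.07, beside a median of 0.0020 over all genes tested.

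None of the 10 genes was called at an adjusted p of 0.05, a threshold that 0.0132% of the genes tested passed (2 genes, Cyfip2 and the pseudogene Gm6158). The genotypes did not overlap for 2 of the 10 in the lower direction and for 1 in the higher direction, where 5.3% and 5.15% of all genes tested separated that way. Because the genes were chosen with this contrast known, nothing is read from these counts.

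**Figure D2:**
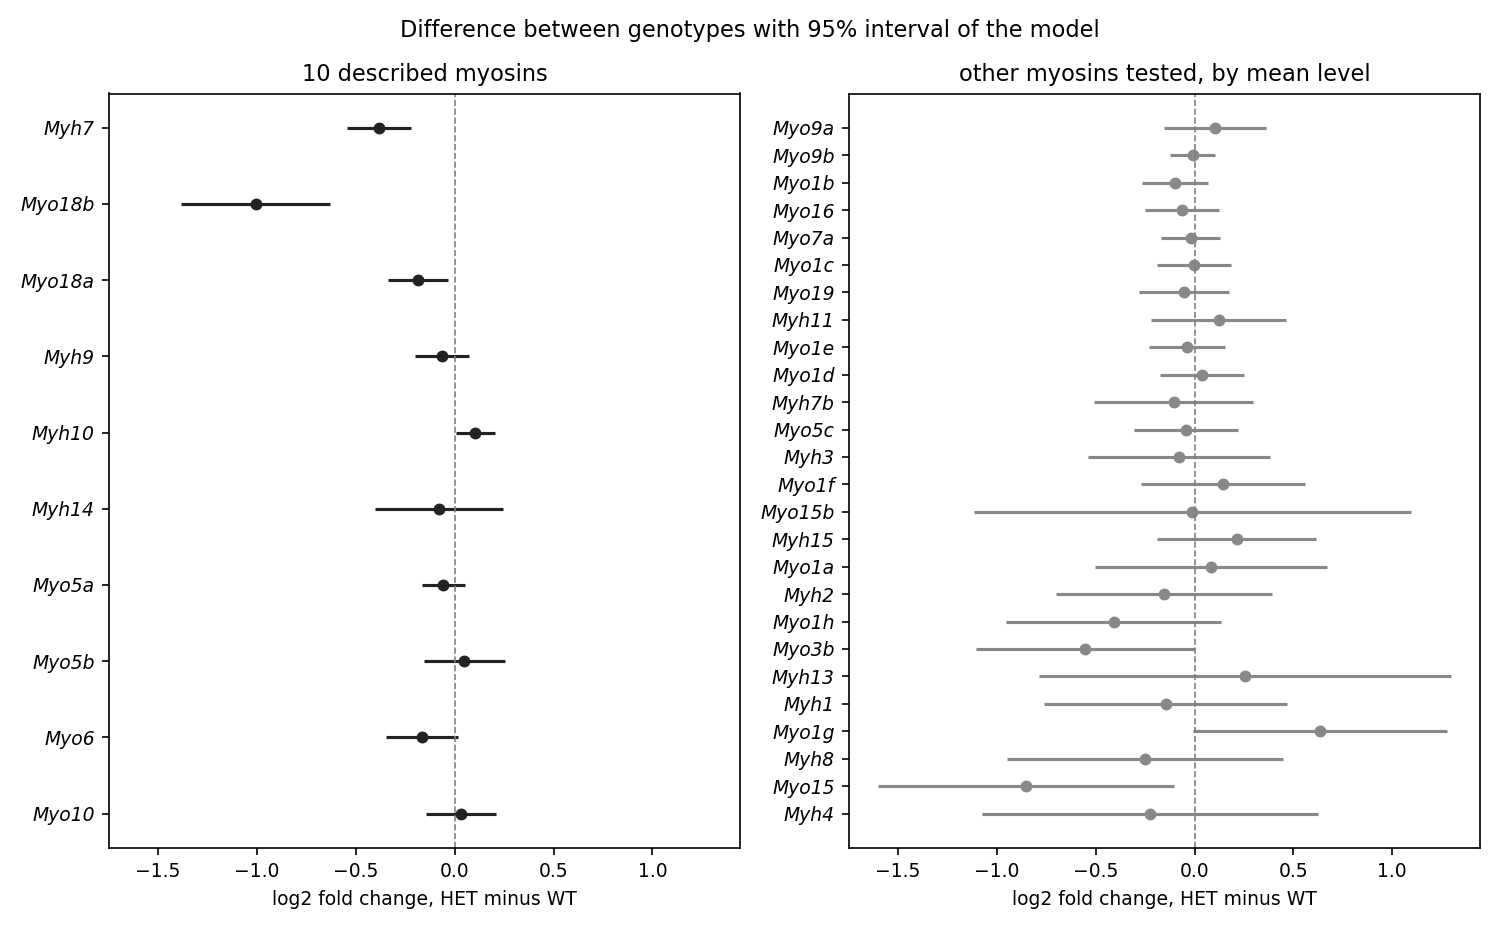
Log2 fold change, HET minus WT (x axis), with the 95% interval of the model, for the 10 described myosins (left) and the 26 other myosins tested, ordered by mean level (right). Myo18b (-1.01) and Myh7 (-0.38) lie farthest below 0 on the left; on the right, intervals are generally wider at the low mean levels toward the bottom.

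Levels were compared between genes only per kilobase of the principal GENCODE transcript. In WT samples Myo5a was the most abundant at 3985 ± 118 normalized counts per kb (SD, n = 3), followed by Myh10 at 1498 ± 19.9, Myo18a at 1085 ± 55.7, Myh9 at 605 ± 30.3 and Myo6 at 563 ± 59.5. Myo10 followed at 192 ± 16.6, Myh14 at 156 ± 29.1, Myh7 at 108 ± 3.73, Myo5b at 102 ± 9.77 and Myo18b at 14.1 ± 2.00. Neighbouring pairs had overlapping ranges over the 6 samples: Myh9 and Myo6, Myo10 and Myh14, and Myh7 and Myo5b. The order was the same in HET samples except that Myo5b (105 ± 6.79) stood above Myh7 (82.8 ± 2.46). Myh7 was thus as abundant per length as Myo5b in WT cortex, while Myo18b was 7.25-fold lower than Myo5b.

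Within nonmuscle myosin II, Myh10 made up 66.3% ± 2.06 of the summed level per kb in WT and 69.0% ± 1.31 in HET samples, Myh9 26.8% ± 0.88 and 24.8% ± 0.92, and Myh14 6.88% ± 1.18 and 6.27% ± 0.89 (SD, n = 3 each). The Myh9 share was below every WT sample in all 3 HET samples, at 24.0% to 25.8% against 25.8% to 27.5%, with HET sample 1 at 25.77% and WT sample 1 at 25.79%. The Myh10 share overlapped, since WT sample 1 was at 68.7%.

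**Figure D3:**
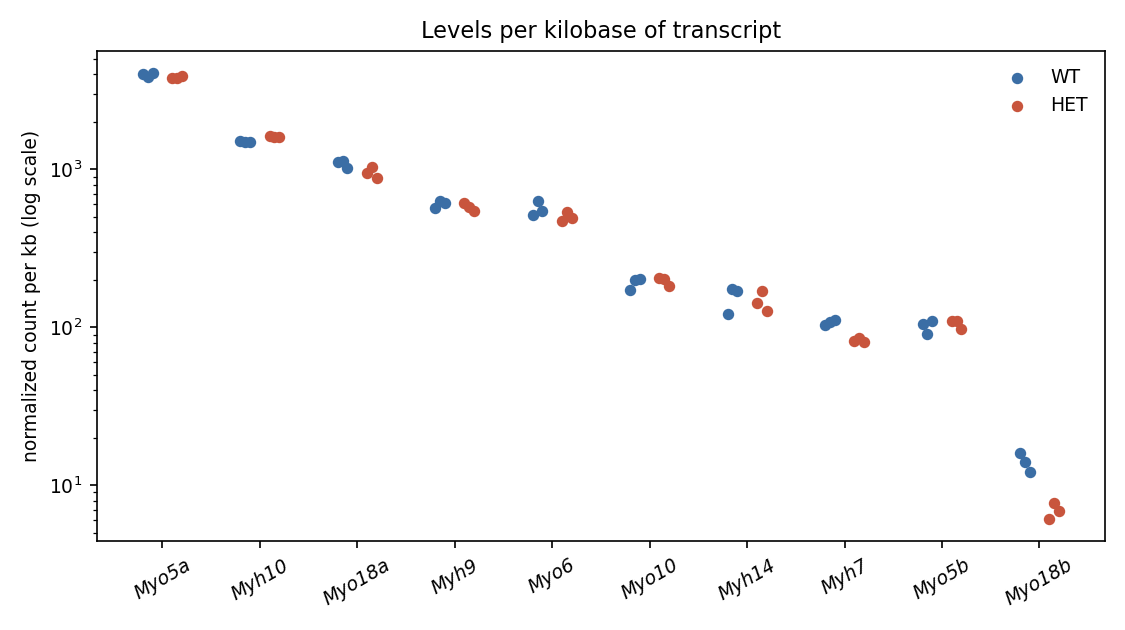
Normalized counts per kilobase of transcript (y axis, log scale) of the 10 myosins in each WT and HET sample, in the order of the WT means. Levels run from 3985 for Myo5a to 14.1 for Myo18b in WT.

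The other genes of the actomyosin system were taken from 6 lists of 95 tested genes in all. None of the 95 passed the threshold, and the lowest adjusted p was 0.93 by limma-trend. Of the 27 other myosins in the table, 26 were tested: 8 were above and 18 below WT, with a median log2 fold change of -0.04. Genotypes separated in the lower direction for 3 of them (11.5%) and in the higher direction for 2 (7.69%), beside 5.3% and 5.15% of all genes tested. The 10 with a mean normalized count of at least 500 ranged from -0.10 to 0.12.

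Among other muscle-type heavy chains, 3 of 9 tested genes were above and 6 below WT, with a median log2 fold change of -0.10. That median was -0.18 without WT sample 1 and -0.01 without WT sample 2, and it was 0.02 over the 4 genes with a mean of at least 50. Myh6, the alpha heavy chain that lies next to Myh7 in the genome, was nearly absent, at 0 to 5.83 normalized counts. Myh7b, a slow-type heavy chain also found in neurons, was at 352, 393 and 531 in WT and 500, 361 and 328 in HET samples, with overlap. Myh11, the smooth muscle heavy chain, was at 471 to 691 and 540 to 756. Smallest in p were Myh15, at a log2 fold change of 0.21 ± 0.18, and Myh8, at -0.25 ± 0.31 (SE), a perinatal skeletal form.

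Among the other unconventional myosins, 5 of 17 tested genes were above and 12 below WT, with a median of -0.02. The genes with the smallest p, Myo15 (log2 fold change -0.85 ± 0.34) and Myo3b (-0.55 ± 0.25, SE), both best known from the stereocilia of hair cells, were near the lower limit of detection. Myo15 was at 18.2, 23.3 and 20.7 in WT and at 13.2, 7.34 and 13.5 in HET samples. Myo3b was at 33.1, 28.3 and 37.6 in WT and at 18.8, 21.5 and 26.5 in HET samples. Both separated by genotype, and limma-trend gave both an adjusted p of 0.95.

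Light chains, the small subunits that bind the lever arm of the heavy chain, had 6 of 11 tested genes above WT and a median log2 fold change of 0.02. Myl4, the atrial and embryonic essential light chain, was at 1326, 1169 and 963 in WT and at 1050, 784 and 840 in HET samples, with a log2 fold change of -0.37 ± 0.13 (SE; adjusted p = 0.93 by limma-trend). Myl12b, a regulatory light chain of nonmuscle myosin II, had a log2 fold change of 0.09 ± 0.05 (SE). Kinases, phosphatases and folding factors of myosin had 8 of 19 above WT and a median of -0.01. The chaperones that fold the myosin head had the smallest p there: the general form Unc45a had a log2 fold change of -0.17 ± 0.08 and the striated muscle form Unc45b one of -0.44 ± 0.20 (SE), where limma-trend gave both an adjusted p of 0.95. Cargo adaptors of myosins V and VI had 10 of 18 above WT and a median of 0.02. Rab27a, whose protein recruits Myo5a to melanosomes, was at 0.30 ± 0.12 (SE), and Tom1, an adaptor of Myo6, at -0.86 ± 0.42 (SE), where HET sample 2 was at 119 and the other 5 samples at 295 to 547.

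Genes of the sarcomere, the contractile unit in which MYH7 works, were divided in direction. Of 21 tested genes of the sarcomere list, 10 were above and 11 below WT, with a median of -0.01. Tnnt1, the slow skeletal troponin T, had a log2 fold change of -0.34 ± 0.16 and Tnnt2, the cardiac form, 0.21 ± 0.16 (SE), both at an adjusted p of 0.95 (limma-trend). As a check for muscle tissue in the samples, 15 of 16 striated muscle markers were in the table, and they summed to 1173 to 1327 in WT and 1148 to 1255 in HET samples, with overlap. The defining muscle genes Ckm and Mb were at 0 to 4.92 and 0 to 4.53, and the troponins Tnnt3 and Tnnc2 at 0 to 3.38 and 0 to 4.29 normalized counts. Acta1 (414 to 500), Tcap (155 to 200) and Tnnt2 (119 to 188) made up most of the sum. Myl2, the regulatory light chain of slow and ventricular muscle, was below the level for testing, at 7.64 to 10.95 in WT and 2.65 to 6.56 in HET samples, without overlap. Smooth muscle and mural cell markers summed to 7693 to 10449 in WT and 8973 to 10786 in HET samples.

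Summed markers of several cortical cell types separated by genotype, as Myh7 and Myo18b did. In a bulk sample, fewer cells of a type and less RNA per cell cannot be told apart. The 9 markers of layer 2 to 4 neurons summed to 39559 to 46998 in WT and 35876 to 38856 in HET samples, with 8 of 9 below WT and none at 0. The 7 markers of excitatory neurons summed to 263524 to 271930 and 238375 to 254517 (5 of 7 below WT), and the 9 striatal markers to 8925 to 10072 and 7794 to 8624 (6 of 9 below WT). In the other direction, the 10 markers of layer 5 and 6 neurons summed to 8331 to 9552 in WT and 9620 to 9886 in HET samples (10 of 10 above WT), and the 9 interneuron markers to 31577 to 35006 and 35579 to 36131 (8 of 9 above WT). Oligodendrocyte precursor markers summed to 8535 to 10820 and 7987 to 8525 (4 of 6 below WT). A sum is led by its most abundant genes. By the mean log2 level, each gene centred on its own mean, the excitatory, layer 2 to 4 and interneuron lists also separated. Overlap was seen for layer 5 and 6 (-0.22 to 0.06 in WT, 0.05 to 0.09 in HET samples). It was also seen for striatal (-0.14 to 0.29, -0.17 to 0.04) and precursor markers (-0.03 to 0.25, -0.13 to 0.0006). Where the sums overlapped, 10 of 10 oligodendrocyte markers were below WT (median log2 fold change -0.14), while 9 of 10 markers of meninges and fibroblasts (0.15), 9 of 10 endothelial (0.08), 9 of 12 smooth muscle and mural (0.05), 7 of 8 astrocyte (0.04) and 6 of 8 microglial markers (0.05) were above. None of these markers passed the threshold, and the part of the cell makeup in the values of Myh7, Myo18b and Myh10 was not tested. Across the WT samples the layer 2 to 4 sum was highest in sample 3, where Myh7 was highest and Myo18b lowest.

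**Figure D4:**
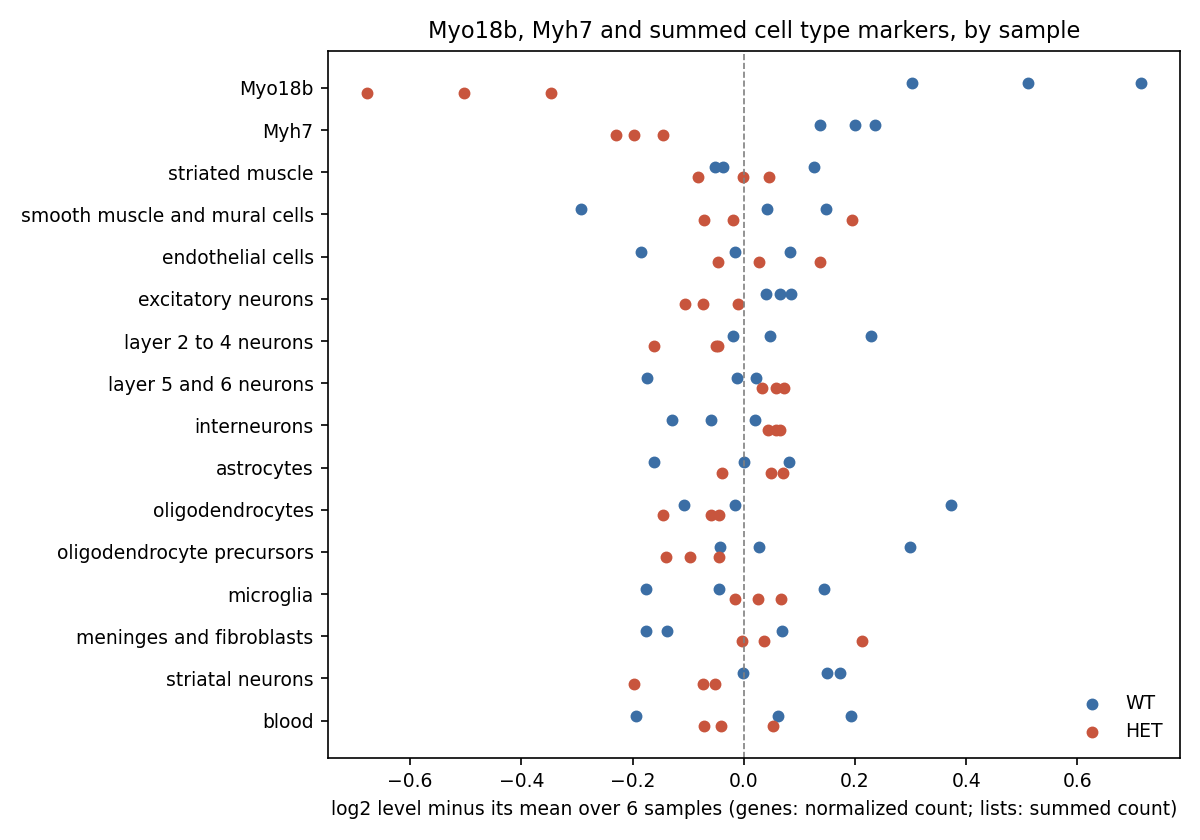
Log2 level minus its mean over the 6 samples (x axis) for Myo18b, Myh7 and the summed markers of each cell type, with 1 point per sample. The WT and HET points of Myo18b and Myh7 lie apart. Those of the excitatory, layer 2 to 4, interneuron and striatal lists lie apart by a smaller distance. The layer 5 and 6 sums separate only narrowly (9552 in the highest WT, 9620 in the lowest HET sample). The oligodendrocyte precursor sums nearly touch (8535 in the lowest WT, 8525 in the highest HET sample).

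The profile of each muscle-type gene over the 6 samples was compared with those of 13311 other genes with a mean of at least 50, by the root mean square distance between log2 profiles centred on their means. Nearest to Myo18b were Gm14308 at 0.22, Cyfip2 at 0.24 and the sodium channel gene Scn7a at 0.27, where Myo18b's own profile had a root mean square of 0.53. Myh7 was 31st in that order, at 0.35. Nearest to Myh7 were Klhl33 at 0.05, Il4ra at 0.06 and Kcnk4 at 0.06, against its own root mean square of 0.19. Counted from Myh7, Myo18b was only 12715th of the 13311 genes, at 0.35. The distance depends on the size of the differences as well as on their pattern. A gene with no change at all would lie at 0.19 from Myh7, nearer than Myo18b. The rank therefore does not show whether the pair share a pattern over the samples. Klhl33 was at 108, 108 and 106 in WT and 87.5, 88.0 and 85.2 in HET samples, and Kcnk4 at 793, 787 and 786 and at 632, 677 and 642. The 6 values fall into 2 genotypes, so a gene that separates them by a like amount ranks high by this measure.

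On GRCm38 (GENCODE M21), Myh7 lies on the minus strand of chromosome 14 (54970684 to 54994626, 41 exons in its principal transcript) and Myo18b on the minus strand of chromosome 5 (112688876 to 112896362, 44 exons). Myh10 (68691559 to 68816632) and Myo18a (77763246 to 77865980) lie on the plus strand of chromosome 11, at 22.4 and 31.5 Mb from Cyfip2. Myh9 (77760587 to 77842175, minus strand) and Myo10 (25622525 to 25813673) lie on chromosome 15, Myo5a (75071015 to 75223688) and Myo6 (80165031 to 80311729) on chromosome 9, Myh14 (44605803 to 44670843, minus strand) on chromosome 7 and Myo5b (74440936 to 74771493) on chromosome 18. The tested genes around the muscle-type pair were looked up after the values were seen. Beside Myo18b, Grk3 had a log2 fold change of 0.13, Sez6l one of -0.02, Asphd2 one of -0.12 and Crybb3 one of -0.45 ± 0.30 (SE). Crybb3 was low, at 28.7, 36.4 and 41.7 in WT and 27.1, 17.2 and 35.7 in HET samples, and its genotypes overlapped. Beside Myh7, Ngdn was at 0.05, Cmtm5 at -0.01 and Efs at -0.06, while Zfhx2, 65.6 kb away, was at -0.18 ± 0.06 (SE) with all HET samples (2471 to 2627) below all WT samples (2731 to 3125).

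How uniquely reads can be assigned differs among the myosins. Of the 31-base words of the Myh7 transcript, 31.9% also occur in transcripts of another gene, nearly all in Myh6, so that part of the reads could be split between these neighbours. Myh6 was listed at no more than 5.83 in any sample, but that value comes from the same assignment of reads, and the split was not tested. For Myo18b the share was 0.036%, for Myh9 1.81%, for Myh10 1.38% and for Myh14 0.346%, and it was 0 for Myo18a, Myo5a, Myo5b and Myo6 and 0.086% for Myo10. Antisense genes overlap exons of Myh7 (Mhrt, Gm29015 and Gm31251), Myo18b (1700095B10Rik) and Myh14 (2310016G11Rik); the library kit keeps the strand, but the sources used here do not say how strand was used in counting.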

How the data were processed

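Stranded mRNA libraries (TruSeq Stranded mRNA, per the labels' protocols) were made from 3 WT and 3 HET samples, whose genotype and number come from their titles. The authors deposited 1 table of normalized counts, that is, a normalized signal for each gene, as DESeq2 produces. The submitters' processing notes name Salmon 0.11.2, DESeq2 1.19.11, R 3.6.0 and GRCm38, without their roles; annotation release and gene filter: not given in the sources used here. Values were not whole numbers, so no count model was used.

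Values were tested as log2(normalized count + 1) with limma 3.58.1 in R 4.3.3 (trend in level, genotype as the only term) over all 15151 genes with a mean of at least 10, with Benjamini-Hochberg adjustment and a threshold of 0.05. The procedure was tested on simulated data. Symbols were matched for 18122 of 18160 identifiers. Levels per kb used the longest principal protein-coding transcript of GENCODE M21. Depth in reads was estimated from the most common low value of each sample and counts only reads, not molecules.

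The 10 genes and the 6 pathway and 14 marker lists were chosen with earlier results of these data known. Named were Cyfip2, the 10 genes, the 2 members of each pathway list with the smallest p, the 3 genes nearest in profile to Myo18b and to Myh7, and other myosins for their level; Gm6158, list markers and flanking genes were named after their values were seen. Alternatives were TMM rescaling, pseudocounts of 0.5 and 5, other limma settings, other filters, a block for the sample number, and each sample left out in turn. DESeq2 and edgeR were not run.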

Additional observations from a re-analysis of the deposited data

How the results depend on the processing

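For the log2 fold changes of Myh7 and Myo18b, 10 alternatives were run. Leaving out each sample gave -0.41 to -0.36 for Myh7 and -1.11 to -0.90 for Myo18b, and the 4 others gave Myo18b -1.01 to -0.96. All 10 stayed within 1 replicate SD of the reported values, but for most that outcome was fixed in advance. With 3 samples per genotype, leaving 1 out cannot move a fold change by 1 such SD. A block for the sample number cannot move it at all, so only the rescaling and the pseudocounts could have differed. The gap between the muscle-type pair and the 8 others was -0.70 to -0.58 when samples were left out. The number of genes without overlap was 3, and 3 to 5 when samples were left out (5 without WT sample 1 and 5 without HET sample 2); Myh7, Myo18b and Myh10 were among them each time, as they must be. Over all genes, 2 were called, 1 by limma without the trend, 1 with a mean of at least 50, and 1 to 4 when samples were left out (4 without WT sample 1, 1 without HET sample 1 and 4 without HET sample 3). Cyfip2 lost its call by limma without the trend (log2 fold change -0.63, adjusted p = 0.15); the cause was not tested. The labels do not say that the sample numbers pair samples. Deviations from the group means correlated across genes at 0.132, 0.124 and -0.0052 for like numbers 1, 2 and 3. Between unlike numbers they correlated at -0.164 to 0.046. Whether samples of like number share a factor was not tested further. With the number as a replicate block, 2 genes were called by limma-trend, Cyfip2 (adjusted p = 0.0011) and the pseudogene Gm28437, and no myosin. Fold changes do not change with the block, that of Myo18b being -1.01, but their standard errors can. The SE was 0.04 with the block against 0.07 without it for Myo18a, and 0.04 against 0.08 for Myo6. It was 0.18 against 0.17 for Myo18b, and 0.07 either way for Myh7. The median of the myosin regulators was -0.050 to 0.0081 when samples were left out, lowest without WT sample 2. The medians of the other pathway lists also moved: when samples were left out they were -0.18 to -0.01 for muscle-type heavy chains, -0.06 to 0.01 for unconventional myosins, -0.02 to 0.05 for light chains, -0.0020 to 0.04 for cargo adaptors and -0.04 to 0.02 for the sarcomere, so the sign held only for the muscle-type heavy chains, which turned to 0.02 with a mean of at least 50. The edgeR and DESeq2 alternatives foreseen for raw counts were not run, because the values are normalized. Depth in reads is known only as an estimate, and Myo18b rests on the fewest reads of the 10 genes.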
